A study of Mus musculus with 6 samples.

Results

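Cell cycle and mitosis genes were followed in whole mouse lung with and without silicosis, a scarring disease caused by crystalline silica. The 40 genes were taken by symbol from the 17973 rows of the mRNA count table, and all 40 were among the 15808 mRNAs that passed the filter on low counts. They were divided by role into 15 genes of DNA replication, 18 genes of mitosis and 7 cyclins, transcription factors and markers that act across phases. Lungs of C57BL/6 mice gave 3 control and 3 silicosis libraries of total RNA. Silicosis lungs had received silica once into the trachea (8 mg in 40 µL of sterile saline), the series text names sterile saline for the comparison samples, and lungs were frozen after 90 days. Neither age nor sex of the mice is in the labels. Whether each library is a different mouse is not stated either, so the p-values reflect only how much these samples vary, which may be technical. Levels are CPM, counts scaled to a common library total, after TMM correction for library composition, and log2 fold changes are silicosis minus control with the standard error (SE).

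A dividing cell licenses its replication origins in G1, copies its DNA in S phase and separates the copies in mitosis. Transcription factors of the E2F family switch on replication genes at the G1/S boundary, and a later wave driven by B-MYB with the MuvB complex and by FOXM1 switches on mitotic genes in G2. In resting cells the DREAM complex, which also contains MuvB, represses genes of both waves. Most cells of the adult lung rest outside the cycle, and dividing cells in an injured lung can be epithelial, endothelial, mesenchymal or immune. In RNA of whole lung, a larger number of dividing cells and more of these transcripts per dividing cell cannot be told apart.

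The mRNA libraries held between 33698920 and 44000748 counts, with the lowest total in N138. Over the 40 genes the lowest count in any library was 36, for Gins1. The silicosis library N138 stood apart in these genes: it held the lowest of the 3 silicosis values for 39 of the 40, against 37.1% of all mRNAs tested. It lay below all 3 controls for 18 of the 40 (45%, against 35.9% of all mRNAs) and above all 3 for 9 (22.5%, against 38.3%). N129 and N136 lay above all 3 controls for 34 and 37 of the 40, against 39.2% and 38.6% of all mRNAs. Among the controls C9 tended to be low and held the lowest value of all 6 libraries for 14 genes, against 21.8% of all mRNAs. Values without single libraries are therefore given where they end a call or move a count. N138 was picked out from these same values, so larger fold changes or counts without it are no separate support for a rise.

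Of the 40 genes, 9 rose in silicosis and 0 fell at an adjusted p under 0.05 (edgeR quasi-likelihood test, adjusted over all mRNAs). That is 22.5% higher, where 15.3% of all 15808 mRNAs tested were called higher and 16.5% lower. The median log2 fold change of the 40 was 0.41, against 0.02 over all mRNAs, and 36 of 40 were above 0. Of the 31 genes that did not pass, 6 had an unadjusted p under 0.05, and the 95% interval of 12 reached a 2-fold rise. Of the 31 intervals, 0 reached a 2-fold fall, and 0 genes were lower at an unadjusted p under 0.05. The silicosis libraries lay above the controls without overlap for 8 of 40 genes, beside 23.7% of all mRNAs, and below them for 1, beside 24.0%.

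**Figure D1:**
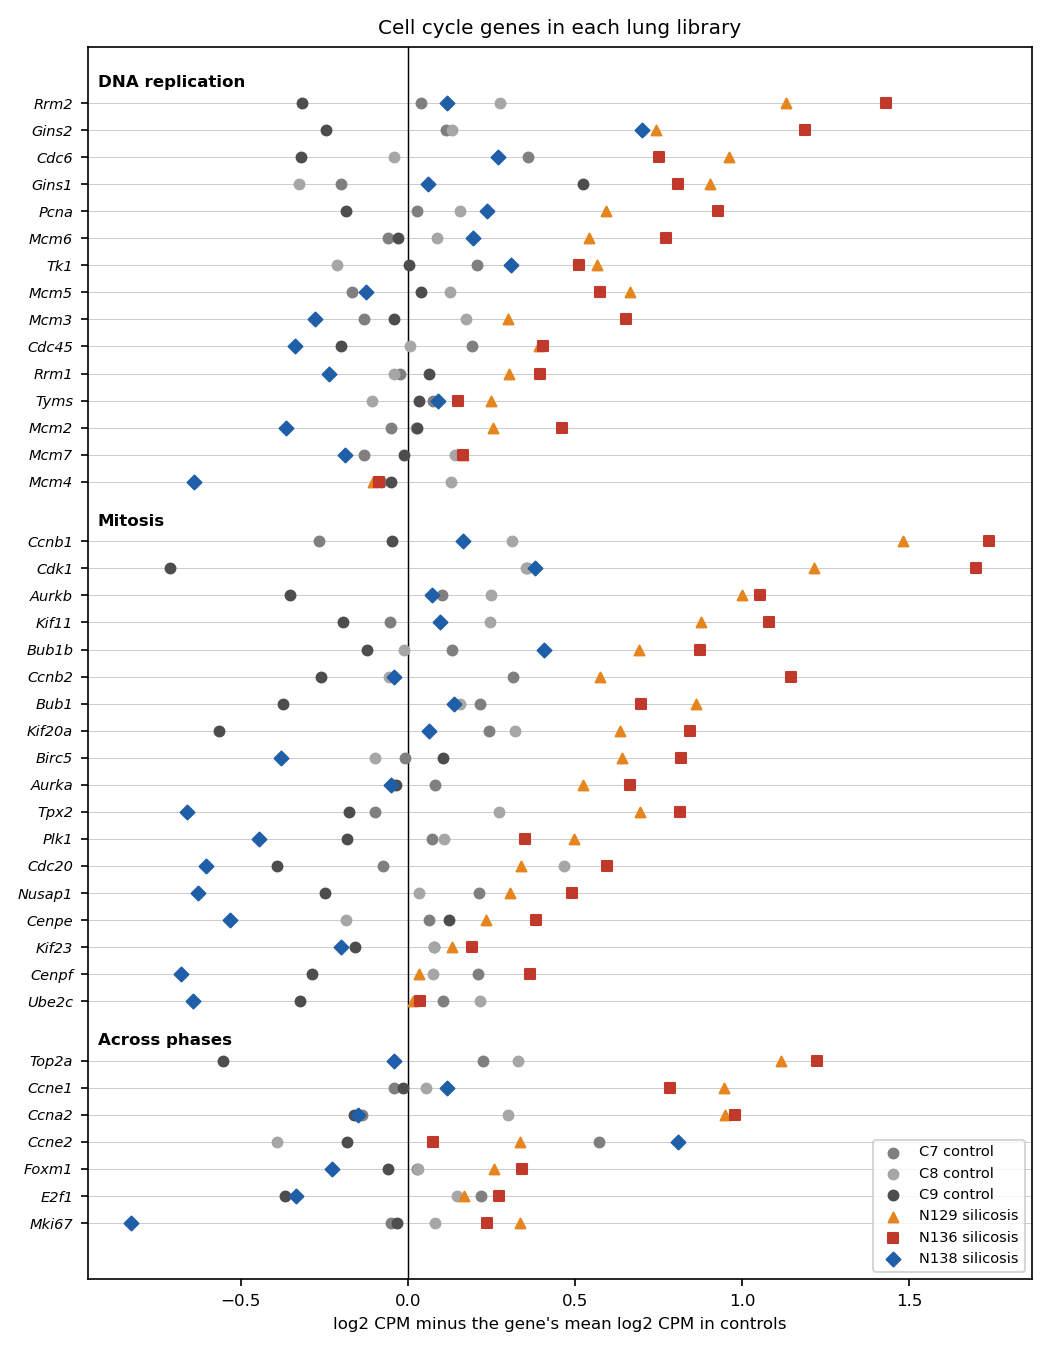
Level of each of the 40 genes in each library, as log2 CPM minus the gene's mean log2 CPM in the 3 controls, with genes ordered within their class by fold change. N129 (triangles) and N136 (squares) lie to the right of the controls (grey) for most genes, while N138 (diamonds) has the lowest silicosis value for 39 of 40.

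Among the 15 DNA replication genes 5 rose and 10 did not pass, where 15.3% of all mRNAs were called higher. The helicase that unwinds DNA at the fork is built from Mcm2 to Mcm7. Its subunit Mcm6 was at 37.9, 42.0 and 38.8 CPM in controls C7, C8 and C9 and at 57.6, 67.6 and 45.3 CPM in silicosis libraries N129, N136 and N138. The groups did not overlap, although N138 was closer to C8 than to N129, and Mcm6 rose by 0.52 on the log2 scale (SE 0.14, adjusted p = 0.0214). Pcna, the sliding clamp that holds the DNA polymerases, was at 46.4, 50.7 and 40.0 CPM in controls and at 68.6, 86.5 and 53.7 CPM in silicosis. All 3 silicosis values were above all 3 controls, and Pcna rose by 0.61 (SE 0.17, adjusted p = 0.0235).

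The other replication genes that rose supply nucleotides or activate the helicase. Rrm2, the regulated subunit of ribonucleotide reductase, was at 7.20, 8.50 and 5.61 CPM in controls and at 15.4, 19.0 and 7.60 CPM in silicosis. N138 was inside the control range while N129 and N136 were above it, and Rrm2 rose by 0.98 (SE 0.31, adjusted p = 0.0381). Tk1, the thymidine kinase of the salvage pathway, was at 21.2, 15.8 and 18.4 CPM in controls and at 27.1, 26.1 and 22.7 CPM in silicosis, without overlap, and rose by 0.46 (SE 0.14, adjusted p = 0.0326). Gins2, a subunit of the GINS complex that activates the helicase, was low, at 1.89, 1.91 and 1.46 CPM in controls and 2.95, 4.04 and 2.87 CPM in silicosis. It rose by 0.90 (SE 0.26, adjusted p = 0.0283). The calls of these 5 genes depended on single libraries: each ended without C9, without N129 and without N136. Calls also ended without C7 (Mcm6, Pcna, Gins2 and Rrm2) and without C8 (Tk1, Gins2 and Rrm2), and over all fits without a single library the largest adjusted p was 0.0769 for Mcm6 and 0.127 for Rrm2. The call of Rrm2 also ended with limma-voom.

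The remaining helicase subunits did not pass. Mcm5 had a log2 fold change of 0.41 (95% interval -0.04 to 0.86) and Mcm3 of 0.27 (-0.20 to 0.74). Mcm2 had 0.16 (-0.26 to 0.58) and Mcm7 had 0.05 (-0.24 to 0.35). Mcm4 was the exception in direction, with -0.26 (-0.61 to 0.09). Its controls were at 34.8, 40.2 and 35.5 CPM and its silicosis libraries at 34.2, 34.6 and 23.6 CPM. All 3 silicosis values were below the controls, but N129 and N136 only just, nearly level with C7, and N138 clearly. The loading factor Cdc6 had 0.67 (0.04 to 1.30, adjusted p = 0.0976), and Cdc45, which travels with the helicase, had 0.19 (-0.37 to 0.74). Gins1, another GINS subunit, had 0.61 (-0.24 to 1.46). For the nucleotide enzymes Rrm1, the large subunit of ribonucleotide reductase, and Tyms, thymidylate synthase, the values were 0.18 (-0.17 to 0.53) and 0.16 (-0.15 to 0.48).

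The promoters of Mcm6, the called replication gene with the lowest p, and of Mcm5, a textbook E2F target, are shown because replication and mitosis genes differ in the motifs found there. The sequences are from RefSeq on GRCm38.p6, 5′ to 3′ on the gene's strand, from 250 bases before the annotated start to 50 bases from the start on, and capitals mark the motif matches described below. Mcm6 is on the minus strand at chr1:128359656-128359955 and Mcm5 on the plus strand at chr8:75109259-75109558.
Mcm6: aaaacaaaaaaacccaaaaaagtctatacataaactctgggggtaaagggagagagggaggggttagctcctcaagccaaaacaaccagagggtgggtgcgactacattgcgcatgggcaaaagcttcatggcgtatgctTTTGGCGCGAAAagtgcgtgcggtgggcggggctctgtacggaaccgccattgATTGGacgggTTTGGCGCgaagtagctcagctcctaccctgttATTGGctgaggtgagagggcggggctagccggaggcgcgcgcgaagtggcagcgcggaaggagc
Mcm5: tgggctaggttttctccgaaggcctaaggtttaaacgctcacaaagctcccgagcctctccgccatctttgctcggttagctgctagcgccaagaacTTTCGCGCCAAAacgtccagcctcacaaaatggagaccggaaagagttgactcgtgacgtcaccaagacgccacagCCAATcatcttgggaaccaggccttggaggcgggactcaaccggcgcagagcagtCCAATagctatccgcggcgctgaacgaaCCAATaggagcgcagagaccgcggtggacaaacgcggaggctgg

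Among the 18 mitosis genes 4 rose and 14 did not pass, where 15.3% of all mRNAs were called higher. Cyclin B1 and its kinase Cdk1, which together drive entry into mitosis, had the highest fold changes of the 40. Ccnb1 was at 2.48, 3.73 and 2.90 CPM in controls and at 8.45, 10.1 and 3.37 CPM in silicosis, and rose by 1.27 (SE 0.37, adjusted p = 0.0295). N138 was inside the control range, below C8, while N129 and N136 were above it. Cdk1 was at 4.32, 4.31 and 2.04 CPM in controls and at 7.88, 11.0 and 4.40 CPM in silicosis, and rose by 1.13 (SE 0.38, adjusted p = 0.0472). Its groups did not overlap, but N138 and the 2 higher controls were nearly level.

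Bub1b, the checkpoint kinase BubR1 that delays anaphase until chromosomes are attached, was at 11.1, 10.1 and 9.32 CPM in controls and at 16.4, 18.6 and 13.5 CPM in silicosis. It rose by 0.67 (SE 0.16, adjusted p = 0.0108), and all silicosis libraries were above all controls. Kif11, the Eg5 motor that pushes spindle poles apart, was at 9.69, 11.9 and 8.79 CPM in controls and at 18.5, 21.3 and 10.8 CPM in silicosis, with N138 inside the control range. It rose by 0.73 (SE 0.24, adjusted p = 0.0451). Bub1b was the only gene of the 40 that stayed called in all 6 fits without a single library, with log2 fold changes of 0.55 to 0.79 and adjusted p of 0.00416 to 0.0415. The calls of Ccnb1, Cdk1 and Kif11 ended without any of C7, C8, C9, N129 or N136, at adjusted p of up to 0.0988, 0.161 and 0.143, and with limma-voom.

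Other mitotic regulators did not pass. Aurkb, the kinase of the chromosomal passenger complex, had a log2 fold change of 0.76 (95% interval 0.10 to 1.42, adjusted p = 0.0765), and its partner Birc5, survivin, had 0.45 (-0.24 to 1.15). Ccnb2, the second B-type cyclin, had 0.63 (-0.06 to 1.32). The checkpoint kinase Bub1 had 0.58 (0.04 to 1.12, adjusted p = 0.0973). For the spindle proteins Aurka and Tpx2, which activates Aurka, the values were 0.42 (-0.09 to 0.92) and 0.41 (-0.34 to 1.16). Kif20a, a kinesin of cytokinesis, had 0.50 (-0.14 to 1.15), whereas Kif23 of the central spindle had 0.05 (-0.30 to 0.40).

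The other mitosis genes did not pass either. Cdc20, which activates the anaphase-promoting complex, had 0.15 (-0.57 to 0.87), and Ube2c, the ubiquitin-conjugating enzyme of that complex, had -0.18 (-0.77 to 0.40). Plk1, the polo-like kinase, had 0.19 (-0.44 to 0.81) and the spindle protein Nusap1 had 0.12 (-0.49 to 0.74). The kinetochore motor Cenpe had 0.08 (-0.45 to 0.60). Cenpf, a kinetochore protein of G2 and mitosis, was at 18.2, 16.6 and 12.9 CPM in controls and at 16.1, 20.3 and 9.82 CPM in silicosis, a log2 fold change of -0.04 (-0.60 to 0.51). Here N136 was the highest and N138 the lowest of all 6 libraries.

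Bub1b, the called mitosis gene with the lowest p, and Ccnb2, a textbook target of the late wave, are shown in the same way. Bub1b is on the plus strand at chr2:118597961-118598260 and Ccnb2 on the minus strand at chr9:70421505-70421804 of GRCm38.p6.
Bub1b: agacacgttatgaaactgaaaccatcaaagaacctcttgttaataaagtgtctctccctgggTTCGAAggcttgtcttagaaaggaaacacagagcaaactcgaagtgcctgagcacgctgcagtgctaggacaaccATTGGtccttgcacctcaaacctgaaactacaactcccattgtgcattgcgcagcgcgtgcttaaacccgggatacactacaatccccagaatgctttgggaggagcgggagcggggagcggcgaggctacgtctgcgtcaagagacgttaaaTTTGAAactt
Ccnb2: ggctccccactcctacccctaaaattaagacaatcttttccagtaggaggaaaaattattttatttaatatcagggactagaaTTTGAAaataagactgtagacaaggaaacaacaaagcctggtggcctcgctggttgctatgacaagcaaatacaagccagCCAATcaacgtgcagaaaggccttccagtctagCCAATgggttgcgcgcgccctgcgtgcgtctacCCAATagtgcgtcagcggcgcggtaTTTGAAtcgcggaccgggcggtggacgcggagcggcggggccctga

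None of the 7 genes that act across phases, among them common markers of proliferation, passed with edgeR. At an unadjusted p under 0.05, 3 were higher and 0 lower, and 4 rose without N138. Mki67, which encodes the Ki-67 antigen, was at 69.7, 76.5 and 70.6 CPM in controls and at 91.0, 85.0 and 40.6 CPM in silicosis. N129 and N136 were above every control and N138 was below every control, and the fit gave a log2 fold change of 0 to 2 decimals (95% interval -0.56 to 0.56). Without N138 its log2 fold change was 0.29 (adjusted p = 0.0442). Top2a, the topoisomerase that untangles sister DNA, was at 39.0, 42.0 and 22.7 CPM in controls and at 72.5, 78.0 and 32.5 CPM in silicosis, a log2 fold change of 0.82 (SE 0.32, adjusted p = 0.0829), or 1.12 without N138 (adjusted p = 0.00527). N129 and N136 were above all controls, and N138 lay between C9 and C7. For Mki67 and Top2a N138 was the lowest silicosis library, so leaving it out raised the fold change by construction.

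The S phase cyclin Ccna2 had a log2 fold change of 0.67 (95% interval 0.02 to 1.32, adjusted p = 0.109). Cyclin E1, encoded by Ccne1 and active at the G1/S boundary, was at 1.76, 1.89 and 1.80 CPM in controls and at 3.55, 3.17 and 1.98 CPM in silicosis. All 3 silicosis values were higher, N138 only slightly, and the log2 fold change was 0.67 (0.03 to 1.31, adjusted p = 0.103). Cyclin E2, Ccne2, was the single gene of the 40 whose highest value was in N138, with 9.79 CPM against 7.04 and 5.87 in N129 and N136 and 4.24 to 8.30 in controls. The transcription factors E2f1 and Foxm1 had 0.04 (-0.44 to 0.51) and 0.15 (-0.26 to 0.55).

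**Figure D2:**
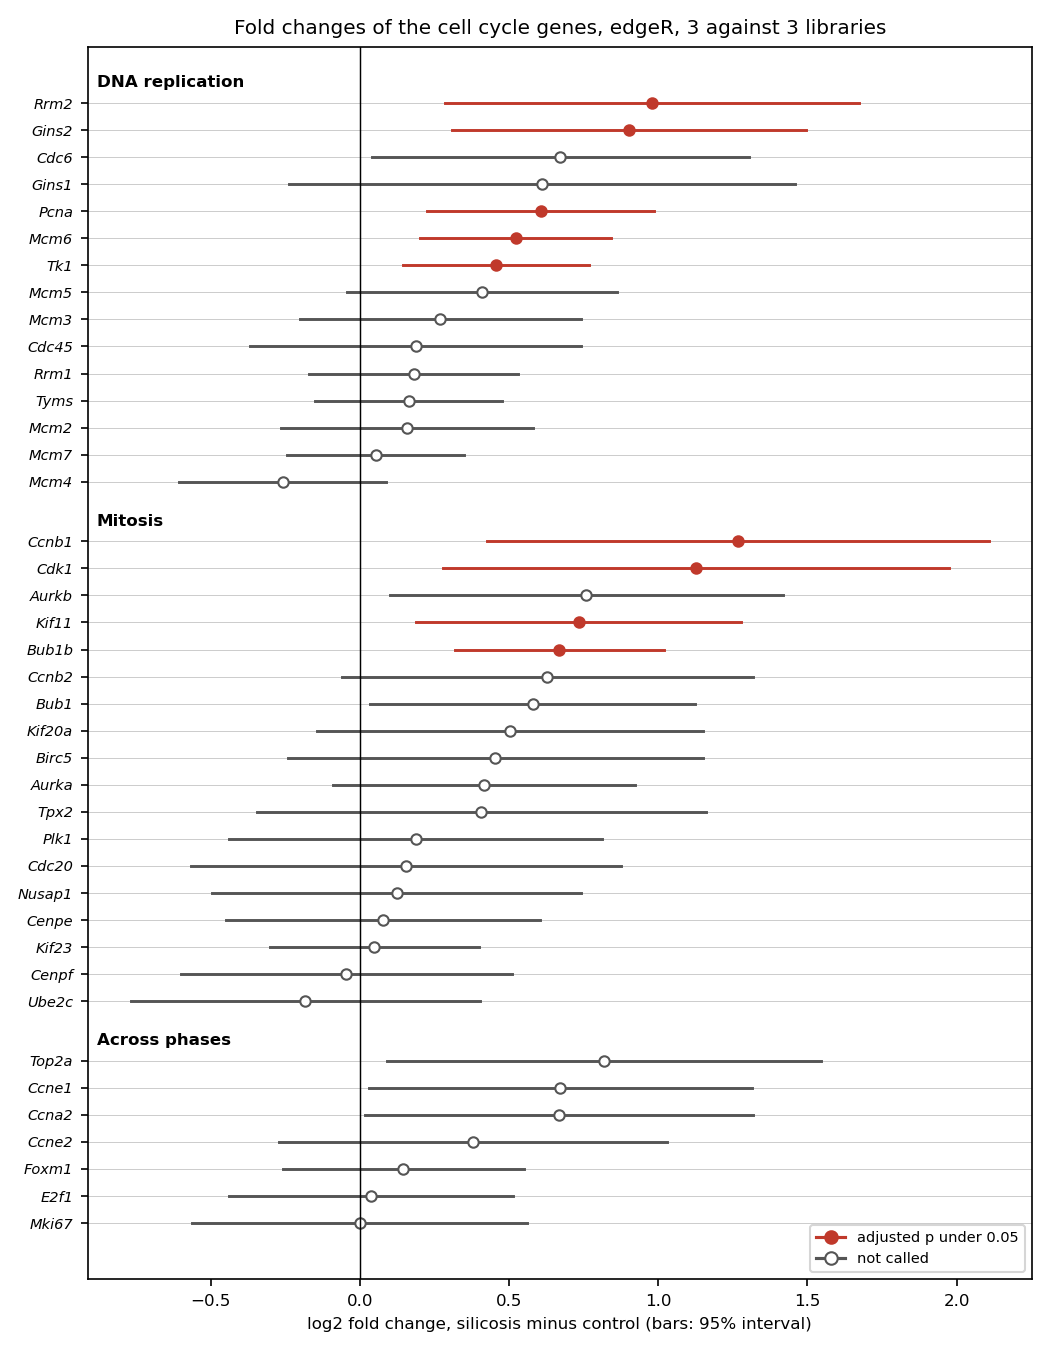
Log2 fold change of each gene, silicosis minus control, with its 95% interval from the edgeR fit over 3 against 3 libraries; filled red points mark the 9 genes called at an adjusted p under 0.05. The called genes lie between 0.46 for Tk1 and 1.27 for Ccnb1, and Mki67 lies at 0.

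Replication and mitosis genes had medians close to each other. The median log2 fold change was 0.41 over the 15 replication genes and 0.44 over the 18 mitosis genes, and 0.38 over the 7 genes across phases. Single libraries moved these medians: that of the replication genes was 0.26 without N129, and that of the mitosis genes was 0.24 without N136 and 0.72 without N138. The median across phases was 0.19 without C8 and 0.59 without C7. In N129 and N136 the median level over replication genes was 0.54 and 0.58 above the mean of controls on the log2 scale, and over mitosis genes 0.61 and 0.76 above it. In N138 the 2 medians were 0.06 and -0.12. N138 lay below all controls for 6 of 15 replication genes and for 10 of 18 mitosis genes, where it did so for 35.9% of all mRNAs. It lay above all controls for 5 of 15 and for 2 of 18, where it did so for 38.3% of all mRNAs, so that the replication genes were near the share of all mRNAs in both directions. No test of the difference between the classes was made, since genes of a class vary together.

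**Figure D3:**
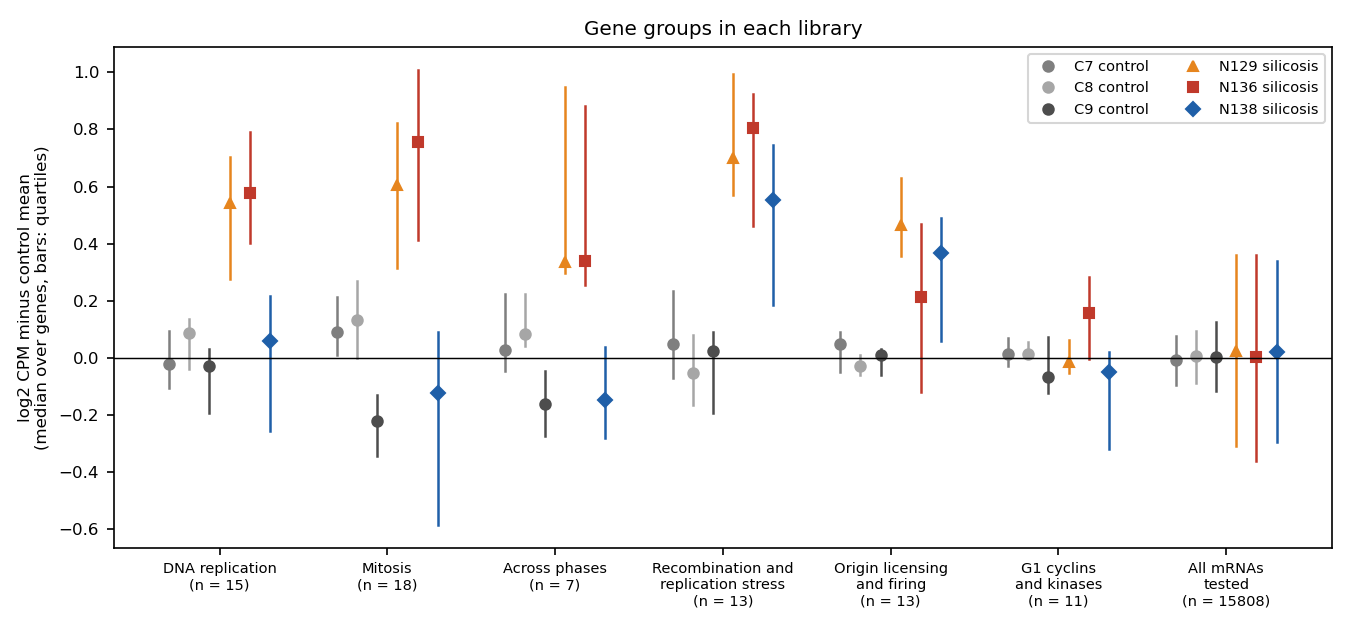
Median over the genes of a group of log2 CPM minus the gene's mean in controls, for each library, with bars for the quartiles over genes. In replication and mitosis genes N129 and N136 are high and N138 is near the controls. In genes of recombination and replication stress, and in those of origin licensing and firing, the medians of all 3 silicosis libraries are above those of the controls. The group named for G1 cyclins and kinases also holds Cdc25b, Cdc25c, Wee1 and Pkmyt1.

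Leaving out N138 changed the count more than leaving out any other library. It had the lowest silicosis value for 39 of the 40 genes, so a higher count without N138 follows from those same values. Without it, 24 of the 40 genes were called higher, 60% against 16.2% of all mRNAs in the same fit. These were 10 replication genes, 10 mitosis genes and 4 of the genes across phases, and included the 9 called with all libraries. Without C7 or C8, 2 and 3 of the 40 were called, where 10.1% of all mRNAs were in each fit. Without C9, N129 or N136 it was 1 of 40, Bub1b, where 11.0%, 10.4% and 12.4% of all mRNAs were called. Among these fits the members' share was thus above that of all mRNAs only without N138. With all 6 libraries and limma-voom it was 5, or 12.5% against 14.7% of all mRNAs, and with DESeq2 10, or 25% against 17.0%. The count stayed at 9 with DESeq2 size factors (14.8% of all mRNAs) and with no filter on low counts (12.9%). At least 2-fold higher were 2 of the 40, Ccnb1 and Cdk1, or 5%, against 5.39% of all mRNAs.

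**Figure D4:**
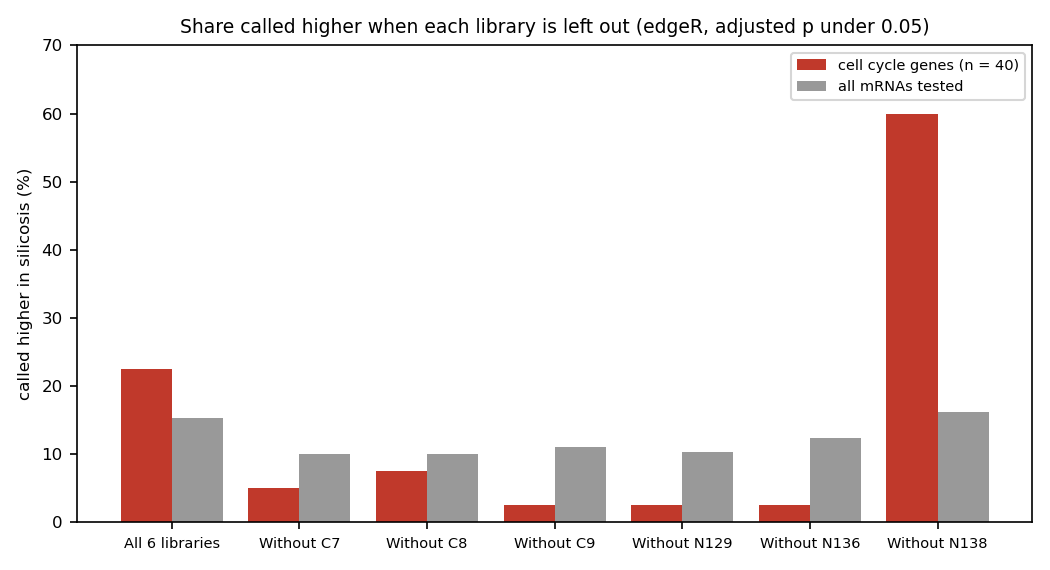
Share of the 40 cell cycle genes (red) and of all mRNAs tested (grey) called higher in silicosis by edgeR at an adjusted p under 0.05, with all 6 libraries and with each left out. The red share is 22.5% with all libraries, 60% without N138 and at most 7.5% without any other library.

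Levels of cell markers also differed between N138 and the other silicosis libraries. For 5 markers of B and plasma cells the summed level was 571, 1045 and 273 CPM in N129, N136 and N138 against 133 to 175 CPM in controls, and 3 of the 5 rose, led by Jchain, the joining chain of secreted antibodies. Jchain alone was at 377, 893 and 184 CPM in N129, N136 and N138. Without it the other 4 summed to 193, 151 and 89.3 CPM against 93.0 to 144 CPM in controls, so that N138 was then the lowest of the 6 libraries. For 4 tested markers of T and NK cells the sums were 85.2, 54.8 and 34.7 CPM against 54.5 to 82.2 CPM in controls, where 0 rose and 1, Ncr1, fell. Neutrophil markers summed to 218 CPM in N138, the highest of the 6 libraries. Alveolar macrophage and fibroblast markers also had their highest sums in N138, with 655 and 1766 CPM, of which the chitinase-like gene Chil3 made up 576 and the collagen gene Col1a1 1240. Without Chil3 the alveolar macrophage markers summed to 79.8 CPM in N138, the lowest library. Car4 made up 45.3 CPM of that sum, against 92.0 to 108 CPM in controls, whereas Fabp4 was above all controls. Without Col1a1 the fibroblast markers summed to 393 to 526 CPM in silicosis, below the 665 to 730 CPM of controls. Markers of alveolar type 2 cells, the surfactant-making cells that define lung, were abundant in every library and summed to 10680 to 17122 CPM in silicosis and 11971 to 14060 CPM in controls, with 0 of 5 called. The part of these cell types in the cell cycle values was not tested.

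The other marker lists describe the makeup of the lung. For every marker list the shares over all mRNAs were 15.3% called higher and 16.5% called lower. Of 4 endothelial markers 3 fell, with sums of 1373 to 1569 CPM in silicosis against 2738 to 3103 CPM in controls, and of 4 alveolar type 1 markers 2 fell. Of 5 basal and airway markers 3 rose and 1 fell, and Krt5 was at 0 in all controls. Monocyte and interstitial macrophage markers rose in 2 of 5, neutrophil markers in 2 of 4, alveolar macrophage markers in 1 of 5 with 2 lower, and fibroblast markers in 1 of 4 with 2 lower. Of 4 markers of red cell precursors 1 fell, and of 4 mast cell markers 0 were called; the mast cell protease Tpsb2 was at 0 in C8, and the neutrophil marker Ly6g at 0 in C7.

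Promoters were available for 31 of the 40 genes, 32 windows in all because Mcm7 has a pair of starts. They were searched on both strands for the E2F site, spelled TTTGGCGC, TTTCGCGC, TTTCCCGC or TTTGCCGC, for the CHR element bound by the late-wave complexes, spelled TTTGAA or TTCGAA, and for the CCAAT box, CCAAT, bound by NF-Y. The E2F letters were found in 5 of 13 replication promoters (Cdc6, Mcm3, Mcm5, Mcm6 and Mcm7) and in 1 of 15 mitosis promoters (Cdk1), against 2.26% of all 32851 promoters in the table. The CHR letters were found in 3 of 13 replication promoters and in 11 of 15 mitosis promoters, against 19.2% of all. The CCAAT letters were in 10 of 13 and 13 of 15, against 37.4% of all. CHR and CCAAT occurred together in 11 of 15 mitosis promoters and in 3 of 13 replication promoters, against 7.52% of all.

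In the printed sequences the Mcm6 promoter holds E2F letters that begin at -110, -106 and -47 from the first transcribed base, the first 2 overlapping on opposite strands, and inverted CCAAT letters at -57 and -14. The Mcm5 promoter has an overlapping pair of E2F matches at -153 and -149 and CCAAT at -77, -22 and 6. The Ccnb2 promoter holds no E2F letters, but CCAAT at -87, -54 and -21 and CHR letters at -167 and 4. The Bub1b promoter has CHR letters at -188 and 40 and an inverted CCAAT at -113. Matches of different motifs overlapped once among the member promoters, in Mcm7. By call, CHR letters were in 3 of 8 promoters of called genes and 13 of 24 of the others, and E2F letters in 2 of 8 and 4 of 24. In a narrower window from 100 bases before the start, E2F letters remained in 3 of the 13 replication promoters and 0 of the 15 mitosis promoters, against 1.27% of all promoters. CHR letters remained there in 2 and 11, against 8.59% of all. A match is a run of letters and not a measured binding site.

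Other genes of the cycle were taken from lists of their own. Of 131 further genes 24 rose (18.3%, against 15.3% of all mRNAs) and 3 fell, with a median log2 fold change of 0.27. The count of 24 was 10 without C8, 12 without C9, 8 without N129 and 14 without N136, or 7.63%, 9.16%, 6.11% and 10.7%, each below the share of all mRNAs in the same fit. Without C7 it was 16, or 12.2%, against 10.1% of all mRNAs, and without N138 it was 41, or 31.3%, against 16.2%. In origin licensing and firing 7 of 13 rose, 0 fell and the median was 0.39. Cdt1, which loads the helicase with Cdc6, rose by 0.68 (SE 0.14, adjusted p = 0.00606), and Orc4, a subunit of the origin recognition complex, rose by 0.47 (SE 0.11), a call that ended without N129 (adjusted p = 0.0522). The count of 7 fell to 1 without N129, 2 without C8 or C9 and 3 without C7. At the replication fork 2 of 26 rose, with a median of 0.24: the clamp loader subunit Rfc4 rose by 0.88 (SE 0.27) and Uhrf1, which maintains DNA methylation behind the fork, by 0.80 (SE 0.26), and both calls ended without C8, C9, N129 or N136. Without N138 4 of the 26 rose, and with limma-voom 1.

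For recombination and replication stress 7 of 13 genes rose, where 15.3% of all mRNAs were called higher. In this list 0 fell and the median was 0.62, with 4 called without C8 and 3 without N129. Atr, the kinase that senses stalled forks, was at 51.6, 49.1 and 49.1 CPM in controls and at 76.2, 68.9 and 90.0 CPM in silicosis, where N138 was the highest library, and rose by 0.65 (SE 0.11, adjusted p = 0.0026). Chek2, a checkpoint kinase, was at 5.24, 6.27 and 6.32 CPM in controls and at 9.96, 10.4 and 9.43 CPM in silicosis, nearly level among the 3, and rose by 0.74 (SE 0.15, adjusted p = 0.00661). Over this list N138 lay above all controls for 10 of 13 genes (76.9%), against 38.3% of all mRNAs and 9 of 40 of the cell cycle genes. In origin licensing and firing N138 did so for 9 of 13 (69.2%).

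Of 18 kinetochore and checkpoint genes 2 rose and 0 fell (median 0.40), where 15.3% of all mRNAs were called higher. The kinetochore scaffold Knl1 rose by 0.96 (SE 0.25) and the centromeric histone Cenpa by 0.45 (SE 0.15), both lost without C8, C9, N129 or N136. Without N138 6 of the 18 rose, and the count was 1 with limma-voom, DESeq2 size factors or no filter on low counts. Of 24 spindle, condensin and cytokinesis genes 3 rose and 1 fell (median 0.28), and 10 rose without N138. Ncapg, a condensin subunit, was at 3.92, 2.97 and 1.80 CPM in controls and at 10.3, 8.10 and 5.34 CPM in silicosis, without overlap, and rose by 1.45 (SE 0.33, adjusted p = 0.00946). Espl1, separase, rose by 0.84 (SE 0.18, adjusted p = 0.00787), whereas Pttg1, securin, which holds separase inactive, was the gene that fell, by 0.51, a call that ended without N129.

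Lists of regulators of the cycle differed in how many genes passed, where 15.3% of all mRNAs were called higher and 16.5% lower. Of 11 genes for D-type cyclins, the G1 kinases and the enzymes that set the phosphorylation of the kinases, 0 rose and 0 fell with edgeR (median 0.07). At an unadjusted p under 0.05, 1 was higher, Cdc25c (log2 fold change 1.46, adjusted p = 0.0513), and 1 lower, Wee1 (-0.31, adjusted p = 0.0797). With DESeq2, and also without N138, 1 gene of the list rose. Cyclin D2, Ccnd2, was at 285, 323 and 263 CPM in controls and at 282, 292 and 219 CPM in silicosis, a log2 fold change of -0.14 (95% interval -0.43 to 0.15). Of 14 E2F and DREAM factors 0 rose with edgeR, DESeq2 or limma-voom (2 at an unadjusted p under 0.05) and 1 fell with edgeR (median -0.01; 2 lower at an unadjusted p under 0.05 and 2 with DESeq2), the E2F partner Tfdp2, by 0.41 (SE 0.08, adjusted p = 0.00477). Of 12 inhibitors of the cycle 3 rose and 1 fell (median 0.33), and 5 rose without N138. Cdkn1c, the inhibitor p57, was at 17.0, 20.5 and 18.9 CPM in controls and at 9.26, 8.28 and 9.35 CPM in silicosis, and fell by 1.07 (SE 0.13, adjusted p = 0.000526). The retinoblastoma gene Rb1 rose by 0.37 (SE 0.08, adjusted p = 0.00945). Of the called genes named from these lists, 8 stayed called in all 6 fits without a single library: Cdt1, Espl1, Ncapg, Cdkn1c, Rb1, Tfdp2, Atr and Chek2.

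Reads may be shared with other genes for some members. Of the 40, 10 have at least 10% of the 50-base windows of their longest transcript in transcripts of other genes, among them the called genes Gins2 (70.3%, with Gse1 the main partner), Ccnb1 (42.2%, Ccnb1-ps) and Pcna (32%, Pcna-ps2), whose counts are uncertain. The 6 other called genes share between 0% and 6.29%. In the authors' deposited table of their own comparison, 10 of the 40 genes were higher and 0 lower at an adjusted p under 0.05, against 15.4% of all mRNAs higher. Aurkb is the additional gene in the authors' deposited table, with an adjusted p of 0.0409 there.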

How the data were processed

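The authors deposited raw whole-number counts per gene and library for mRNAs, not normalised, and a comparison table whose log2 fold changes and p-values (raw and adjusted) are the authors' own; tables of other RNA classes were not used here. Tools named by the submitters' processing notes, whose roles are not stated, are featureCounts 2.0.0, HISAT2, Bowtie2, DESeq2 1.36.0 and Trimmomatic 0.39, and the build is GRCm39. Neither annotation nor strand setting is known from these sources, so a gene and its antisense partner may share reads.

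Counts were fitted with edgeR 4.0.16 in R 4.3.3 (filterByExpr, TMM, two-sided quasi-likelihood F test, Benjamini-Hochberg over all mRNAs tested). The SE is the log2 fold change divided by the square root of F. Levels by library over a group used log2 CPM with a prior count of 2. The fit was repeated without the filter, with the size factors of DESeq2, with DESeq2 1.42.0 itself and with limma-voom (limma 3.58.1). Further alternatives were a 2-fold minimum, summed CPM, a shorter promoter window and each library left out. Leaving out genes with shared windows was chosen after seeing the data. Libraries of a group were distinct, with a chi-square per degree of freedom of at least 15.0. The tests were tested on simulated data.

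The members and lists were chosen with earlier results of these data known. Values in every library are given for called members, for Mki67, Top2a, Pcna and Cdk1, and for the 2 most abundant and 2 most changed members of each class; Mcm4, Ccne2 and the other genes listed at a value were named beyond this rule after their values were seen. From each list the 2 called genes with the lowest p, or the most abundant gene, are named. Pttg1, Cdc25c, Wee1, Jchain, Chil3, Car4, Siglecf, Marco, Fabp4, Col1a1 and Ncr1 were singled out after their values were seen. One marker list is not reported here. Promoters come from a RefSeq table on GRCm38.p6, an earlier build than the counts, and shared windows of 50 bases, every 5 bases, from GENCODE M21 transcripts of GRCm38.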

Additional observations from a re-analysis of the deposited data

How the results depend on the processing

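With DESeq2 size factors and with no filter on low counts the same 9 genes were called, and DESeq2 called these and Aurkb. The count of genes called higher was 5 with limma-voom, of which 1 was a mitosis gene, and 2 with a 2-fold minimum, with 0 replication and 2 mitosis genes; over all mRNAs the 2-fold minimum left 852 higher and 479 lower. Without the 10 genes that share windows, 6 of 30 were called. With single libraries left out, the count ranged from 1 to 24 for all 40 genes, from 0 to 10 for replication genes, from 1 to 10 for mitosis genes and from 0 to 4 for genes across phases. These fits hold fewer libraries, and the further cause was not tested. No called gene changed sign in any alternative. In the fits without single libraries 10 genes that were not called changed sign, with log2 fold changes from -0.028 to 0.36 for Mcm2, -0.013 to 0.16 for Mcm7, -0.10 to 0.43 for Cdc20, -0.33 to 0.0093 for Ube2c, -0.033 to 0.16 for Kif23, -0.10 to 0.39 for Nusap1, -0.11 to 0.31 for Cenpe, -0.30 to 0.20 for Cenpf, -0.13 to 0.20 for E2f1 and -0.20 to 0.29 for Mki67. No paired analysis was possible because the groups share no replicate numbers. With 3 libraries a group and 1 of them apart, a rise of 2-fold could not be resolved for 12 of the 31 genes that did not pass.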
